A study of Homo sapiens with 12 samples.

Results

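Transcript levels of 10 transcription factors of B-cell precursor identity and stage were examined in RCH-ACV cells, a human B-cell precursor acute lymphoblastic leukemia (ALL) cell line that expresses the pre-B-cell receptor (pre-BCR). The genes were chosen by symbol, as PAX5, EBF1, IKZF1, IKZF2, IKZF3, ERG, BACH2, BCL6, IRF8 and SPIB. All 10 were listed among the 15612 genes of the clone 1 table and the 16848 genes of the clone 2 table. Both tables lack the most weakly expressed genes, with lowest listed means of 2.52 and 1.14. No listed gene can lie below these limits, so being listed does not show how strongly the 10 factors are expressed.

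The study compared dasatinib-sensitive cells, kept in vehicle (0.1% DMSO), with dasatinib-resistant cells, kept in rising concentrations of dasatinib up to 1 µM. Dasatinib inhibits kinases of the SRC and ABL families. The resistant cells were 2 sublines, called clones 1 and 2, that had been generated independently, and each had sensitive control cells of its own. RNA was isolated at 3 separate time points for each of the 4 groups, which gave 12 libraries. The level used here is the authors' mean over all 6 libraries of a clone, after division of the read counts by library size factors, and it is called the mean normalized count. It pools sensitive with resistant cells. The other numbers in both tables are the authors' own comparison of the 2 conditions and were not used here, so no level per condition or per library, no replicate spread and no test of resistance is given. The depth of single libraries is unknown. Over all genes, the means add up to 19108037 (clone 1) and 24561485 (clone 2), and the median gene has a mean of 406 and 442.

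B-cell identity is set by a network of transcription factors. EBF1, together with the product of TCF3, opens the B-lineage program, and PAX5 then holds cells in it. The Ikaros family of zinc finger proteins, named IKZF, and the interferon regulatory factors act around the pre-BCR checkpoint, at which cells leave division to rearrange their light chain genes. BACH2 and BCL6 are repressors that oppose the step toward plasma cells. In ALL of B-cell precursors, PAX5, EBF1, IKZF1 and ERG are known sites of deletion or mutation. In a cell culture measured in bulk, fewer cells with a transcript and less transcript per cell cannot be told apart.

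The Ikaros genes are close relatives, so their transcripts were first searched for sequence in which a read could not be assigned to 1 gene. In GENCODE release 29 the coding sequences of IKZF1, IKZF2 and IKZF3 were found to share only short identical runs. Each run shown is the longest exact match of the named pair, taken in 1 transcript per gene. Stretches that match with differences were not searched, so the runs do not bound how far reads can be mistaken for each other. Capitals mark 19 bases that all 3 genes carry.
IKZF1 and IKZF3: cacatgggctgccacggcttccgtga
IKZF1 and IKZF2: TGATGGACCAAGCCATCAAcaa
IKZF2 and IKZF3: aTGATGGACCAAGCCATCAA
These runs are 26, 22 and 20 bases long, and they lie within the coding sequence of both genes. No stretch of 31 bases in the IKZF1 or IKZF2 transcript searched occurred in a transcript of another gene. The search covered 1 transcript per gene, and that of IKZF2 held 3717 such stretches beside 9989 bases of exon in all, so most of its exon sequence was not searched. In the other families the longest run of each pair was also searched over the whole transcripts. Of those longest runs that lay within coding sequence, the longest was the 25 bases shared by EBF1 and EBF4. BACH2 and BACH1 shared 37 bases outside the coding sequence, a TG repeat, so their longest coding run was not measured.

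Among the 10 factors, 2 transcripts carried larger shared parts. In SPIB, 30.2% of all 31-base stretches also occurred in other genes, most of them in AC020909.1, a gene annotated on the same strand whose exons overlap those of SPIB by 839 bases. In IKZF3 the share was 8.77%. For the transcripts searched of the other 8 factors it was at most 0.396%. Exons of PAX5, IKZF1, BACH2 and BCL6 overlapped exons of genes on the opposite strand by 80 to 396 bases. How the authors' counting treated strand and shared reads is not given in the sources used here, and the level of SPIB is therefore uncertain.

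The highest levels were those of EBF1, IKZF1, PAX5 and BCL6. EBF1 had a mean of 5048 normalized counts in clone 1 and of 7457 in clone 2, at the 96.0 and 96.9 percentiles of all listed genes. IKZF1, which encodes Ikaros, had 4730 and 6300, at the 95.7 and 96.2 percentiles. PAX5 had 3806 and 4990, at the 94.1 and 94.8 percentiles. BCL6, a repressor that protects pre-B cells while their light chain genes are cut, had 3231 and 4738, at the 92.6 and 94.3 percentiles. In both clones each of these 4 genes was therefore above 92% of the listed genes, without correction for transcript length.

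A middle group lay around or above the median gene. BACH2, which restrains the plasma cell program and takes part in the pre-BCR checkpoint, had a mean of 831 normalized counts in clone 1 and of 792 in clone 2. ERG, an ETS family factor of blood stem cells and early B cells, had 786 and 1250. IKZF2, which encodes Helios and is best known from regulatory T cells, had 660 in clone 1 and 364 in clone 2. IKZF2 was thus above the median gene of its table in clone 1 and below it in clone 2, at the 60.8 and 46.7 percentiles. Among genes with a mean of at least 50 it was below the median in both, at the 48.7 and 27.0 percentiles.

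In clone 1 the lowest levels were those of SPIB, IRF8 and IKZF3, whereas in clone 2 SPIB and IRF8 stood above IKZF2. SPIB, an ETS factor of B cells related to SPI1, had mean normalized counts of 287 and 410. IRF8, an interferon regulatory factor that acts with IRF4 in pre-B cells, had 212 in clone 1 and 485 in clone 2, which placed it at the 38.5 and 51.8 percentiles. IKZF3, which encodes Aiolos and normally rises when the pre-BCR signals, was the lowest of all 10 in both clones. Its means were 16.1 and 36.5, at the 14.2 and 24.7 percentiles, and it was the one factor under 50 normalized counts.

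**Figure D1:**
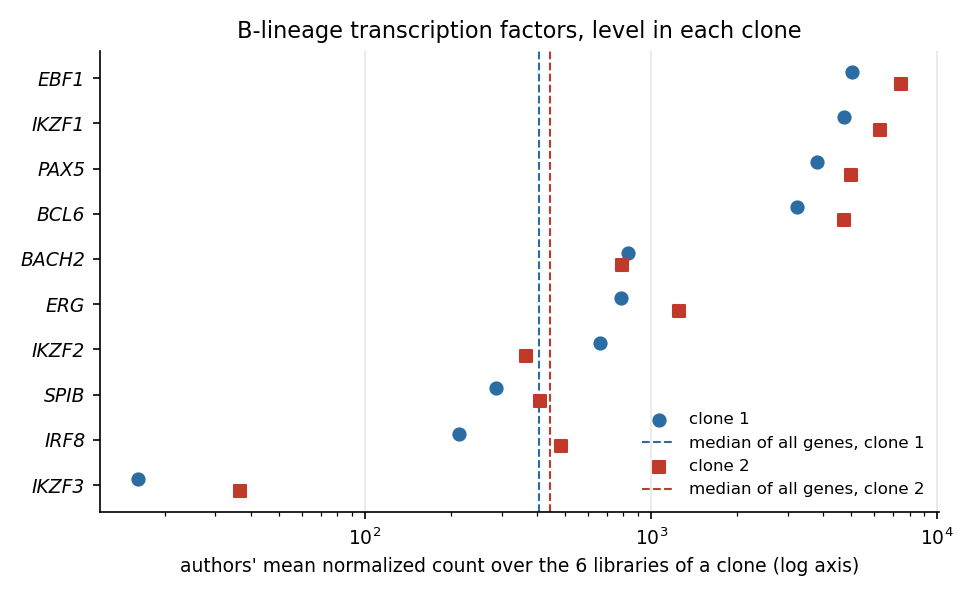
Mean normalized count of each transcription factor over the 6 libraries of a clone, on a log axis, with clone 1 as blue circles, clone 2 as red squares and the median of all genes as dashed lines. EBF1, IKZF1, PAX5 and BCL6 lie between 3231 and 7457 in both clones and IKZF3 lies at 16.1 and 36.5.

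Over the 10 factors the median percentile was 65.9 in clone 1 and 67.4 in clone 2, against 50 for all genes of a table by construction. In either table, 7 of the 10 exceeded the median gene. The clone 2 table lists more genes, and among genes in both tables IRF8 in clone 2 stood at the 47.9 percentile, which left 6 of the 10 above the median there and 7 in clone 1. As a share of the summed means of a table, in normalized counts per 1000000 (CPM), the 10 genes together came to 1026 CPM in clone 1 and 1092 CPM in clone 2. EBF1 alone came to 264 and 304 CPM, and IKZF3 to 0.841 and 1.49 CPM.

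Longer transcripts collect more reads, so the order of the factors was also taken per kilobase of exon, with exon lengths from GENCODE release 29. On this scale EBF1 was highest, with 959 normalized counts per kilobase in clone 1 and 1416 in clone 2. BCL6 followed with 798 and 1170, then IKZF1 with 581 and 773 and PAX5 with 442 and 579. Among genes with a length, these 4 stood at the 91.7, 89.6, 85.2 and 80.5 percentiles in clone 1. In clone 2 they stood at the 93.5, 91.8, 86.8 and 82.4 percentiles. ERG, at 146 and 232, was the only other factor above the median of all genes with a length, which was 121 in clone 1 and 128 in clone 2. IKZF3 was again lowest, at 1.61 and 3.65.

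Between ERG and IKZF3 the order per kilobase differed between the clones. In clone 1 it ran from BACH2 (89.5) over SPIB (75.6) and IKZF2 (66.1) to IRF8 (50.6). In clone 2 IRF8 (116) and SPIB (108) came before BACH2 (85.3) and IKZF2 (36.5). Without a replicate spread it cannot be said which neighbours in these orders differ. The positions also depend on which part of a gene is counted. Per kilobase of coding sequence alone, PAX5 came first in both clones and 7 of the 10 factors exceeded the median gene, in place of 5 per kilobase of exon.

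Within the Ikaros family the 3 members differed widely. Per kilobase of exon, the level of IKZF1 was 8.79 times that of IKZF2 in clone 1 and 21.2 times in clone 2. It was 362 times that of IKZF3 in clone 1 and 212 times in clone 2. The relatives outside the chosen genes, IKZF4 (Eos) and IKZF5 (Pegasus), had means of 344 and 710 normalized counts in clone 1 and 464 and 889 in clone 2. Per kilobase of exon both exceeded IKZF3 in either clone. IKZF5 also exceeded IKZF2, by 2.30 times in clone 1 and 5.22 times in clone 2, or by 1.36 and 3.10 times per kilobase of coding sequence. IKZF4 exceeded IKZF2 in clone 2 alone, at 83.2 against 36.5 normalized counts per kilobase of exon. Per kilobase of coding sequence they lay closer together in clone 2, where IKZF1 was 15.3 times IKZF4 and 17.7 times IKZF2.

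EBF1, PAX5 and BCL6 were higher than each relative that was looked up and listed. EBF1 exceeded EBF4 by 60.5 and 62.1 times and EBF3 by 175 and 222 times per kilobase of exon in clones 1 and 2. PAX5 exceeded PAX8, a factor of thyroid and kidney, by 23.3 and 27.0 times. Per kilobase of coding sequence these ratios were larger, at 108 and 111 for EBF1 over EBF4, 206 and 262 for EBF1 over EBF3 and 54.7 and 63.2 for PAX5 over PAX8. BCL6B was near the lower limit of the tables, with means of 3.73 and 4.28. EBF2, PAX2, FEV and SPIC were not listed in either table.

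For the remaining families a relative was higher than the chosen gene. FLI1, the ETS factor closest to ERG, had means of 4349 and 5867, and per kilobase of exon it was 6.60 and 5.60 times as high as ERG. IRF4, which acts at the exit from the pre-B stage, had means of 3270 and 4093. Per kilobase of exon it exceeded IRF8 by 12.1 times in clone 1 and 6.64 times in clone 2. SPI1 (PU.1), a partner of SPIB with overlapping function, had means of 564 and 862 and exceeded SPIB by 3.60 and 3.85 times. BACH1, a regulator of heme-dependent genes, had means of 837 and 1161 and exceeded BACH2 by 1.60 and 2.33 times. Per kilobase of coding sequence the last 2 ratios were smaller, at 1.90 and 2.03 for SPI1 over SPIB and at 1.15 and 1.68 for BACH1 over BACH2.

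**Figure D2:**
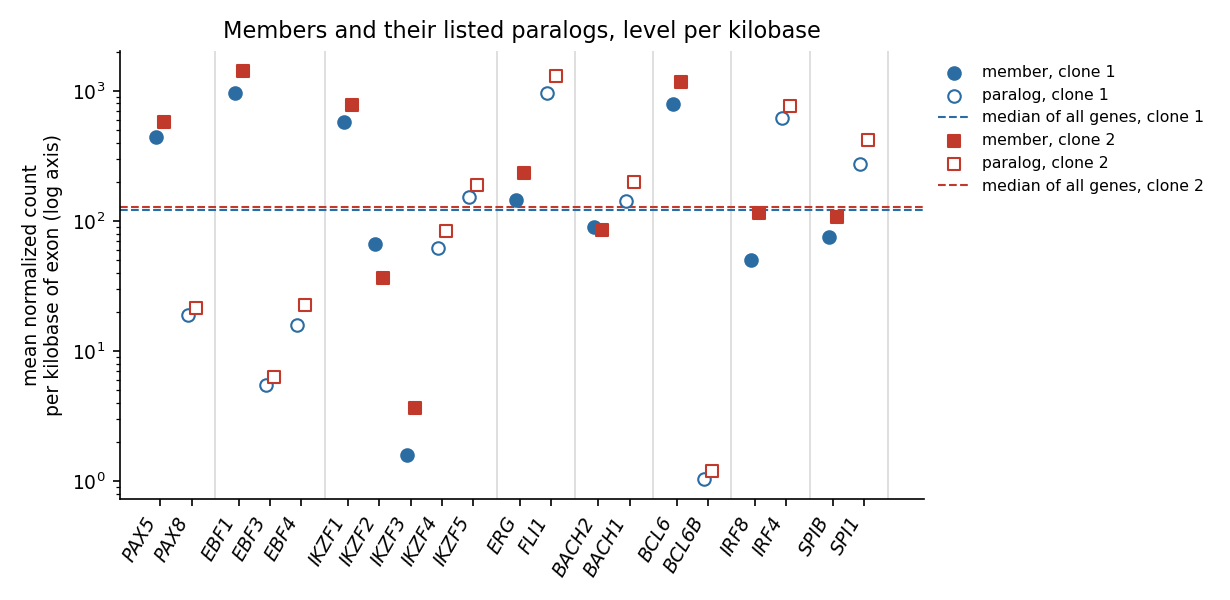
Mean normalized count per kilobase of exon, on a log axis, for the chosen transcription factors (filled) and their listed paralogs (open), grouped by family, with clone 1 as blue circles, clone 2 as red squares and the median of all genes with a length as dashed lines. IKZF1 at 581 and 773 stands far above IKZF3 at 1.61 and 3.65, while FLI1, IRF4, SPI1 and BACH1 are above ERG, IRF8, SPIB and BACH2.

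The levels of the clones were then set side by side. Each table was normalized on its own, so every mean was first scaled to the sum of its table, which is 1.29 times as large in clone 2. A difference between the clones may lie in the sensitive cells, the resistant cells or both, since each mean pools them. The labels also mark all libraries of clone 1 with a set letter A and all of clone 2 with a B. What these sets are is not stated, and clone and set cannot be told apart. After this scaling, the log2 ratio of clone 2 over clone 1 had a median of 0.005 over 15582 shared genes, with the 5th and 95th percentiles at -0.53 and 0.50.

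The largest difference among the 10 factors was that of IKZF2, at a log2 ratio of -1.22. Scaled to the table sums, its level was 34.5 CPM in clone 1 and 14.8 CPM in clone 2, and 0.9% of all shared genes had a ratio as low or lower. IRF8 had a log2 ratio of 0.83, with levels of 11.1 and 19.8 CPM, and stood at the 98.0 percentile of the ratios. IKZF3 had a ratio of nearly the same size, 0.82, at the 97.9 percentile, but its levels of 0.841 and 1.49 CPM are weak. BACH2 was lower in clone 2, at -0.43 and the 6.6 percentile.

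The other 6 factors were closer together in the 2 clones. ERG had a log2 ratio of 0.31, EBF1 of 0.20, BCL6 of 0.19 and SPIB of 0.15. For IKZF1 the ratio was 0.05 and for PAX5 it was 0.03, close to the center of all genes. In all, 8 of the 10 ratios were above 0 and 2 were below, with a median of 0.17. Over all shared genes the median was 0.005, and a ratio of 0.001 stood at the 49.0 percentile. Ratios above and below 0 were thus about equally common over all genes.

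Beyond a 1.5-fold difference in either direction were 3 of the 10 factors, IKZF2, IRF8 and IKZF3, against 8.43% of all 15582 shared genes. Beyond 2-fold was 1 factor, IKZF2, against 3.05% of all genes. The share of genes beyond 1.5-fold depends on the level. It was 2.72% for genes with a mean of at least 50 in both tables, the range that holds IKZF2 and IRF8, and 26.8% for genes under 50 in either table, the range that holds IKZF3. No test was made of these ratios, since each clone contributes 1 mean per gene.

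**Figure D3:**
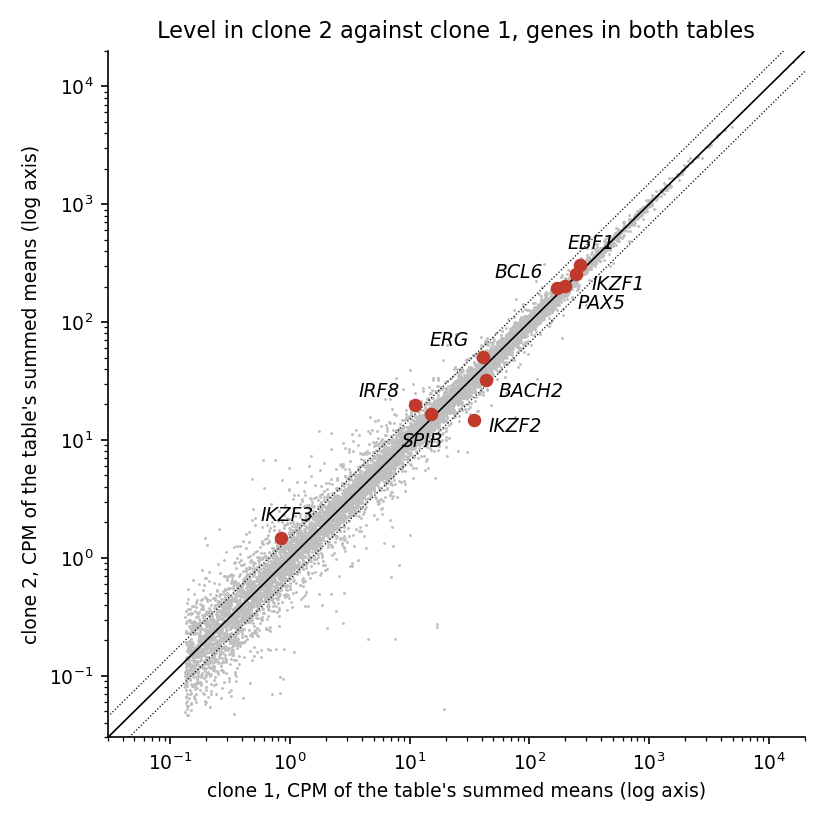
Level of each of 15582 shared genes (grey) in clone 1 and clone 2, in CPM of the summed means of its table, on log axes, with the 10 transcription factors in red, the line of equality solid and the lines of a 1.5-fold difference dotted. IKZF2 lies below the band at 34.5 and 14.8 CPM, IRF8 and IKZF3 lie above it, and PAX5 and IKZF1 lie close to the line of equality.

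Other regulators of the B lineage were mostly well expressed beside the 10 factors. Of 26 listed partners and regulators, all had a value in both clones, and 21 in clone 1 and 23 in clone 2 were above the median gene of the table. Per kilobase of exon, 18 in clone 1 and 19 in clone 2 exceeded the median of all genes with a length. The 4 highest in clone 1 were CHD4, a chromatin remodeler that binds Ikaros (14305 normalized counts in clone 1 and 18952 in clone 2), LEF1 (10719 and 14909), MEF2C (10402 and 13743) and TCF3 (8166 and 10355). The lowest were KLF2, at 13.7 and 29.5, and KLF3, at 9.11 and 3.33. The median log2 ratio of clone 2 over clone 1 for this list was 0.03. Beyond 1.5-fold were 4 of the 26 genes, against 8.43% of all shared genes, and beyond 2-fold was 1, against 3.05%. The 4 were KLF3, at -1.82, ETS1, at -0.92, POU2F2, at 0.79, and KLF2, at 0.75, of which ETS1 and POU2F2 are named after their values were seen. KLF3 and KLF2 have means under 50, where 26.8% of genes were beyond 1.5-fold. For genes with a mean of at least 50 in both clones, such as ETS1 and POU2F2, the share was 2.72%.

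Known targets of PAX5 and EBF1 were also high. Of 15 such genes, 14 were listed, and all 14 exceeded the median gene in both clones, with median percentiles of 87.6 and 91.0. In clone 1 their lowest levels were those of CD72, a B-cell co-receptor, at 614 and of FCRLA at 663. The highest were LEF1, IGLL1 (9233 and 12008), which encodes a part of the surrogate light chain of the pre-BCR, the kinase gene BLK (7452 and 8142) and CD79A (3957 and 4442). CR2, a receptor of mature B cells, was not listed in either table. Per kilobase of exon, 13 of the 14 listed targets exceeded the median of all genes with a length in both clones. The median log2 ratio of this list between the clones was 0.05. None of its 14 listed genes was beyond 1.5-fold, against 2.72% of genes with a mean of at least 50 in both clones. Over all shared genes the share was 8.43%.

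The label of a B-cell precursor line was checked against marker genes. Of 13 markers of B-cell precursors, 12 were above the median gene in each clone, led by the recombination gene RAG1 (13087 and 12035), CD24 (10839 and 14912) and DNTT (10412 and 13027). The exception was MME, which encodes CD10, with means of 67.7 and 67.0, and the next lowest was the adaptor gene BLNK at 1023 and 1653. PRDM1, the plasma cell regulator that BACH2 and BCL6 are known to repress, had means of 7.13 and 7.84 in clones 1 and 2, although another plasma cell gene, XBP1, had 3383 and 4604. The other plasma cell markers were SDC1, at 318 and 631, and TNFRSF17, at 5.41 and 4.41. Of these 4 markers, 1 in clone 1 and 2 in clone 2 were above the median gene. Of the 4 mature B-cell markers, MS4A1 (CD20) had 820 and 1598, CD27 had 128 and 196, and CR2 and FCER2 were not listed. MS4A1 was above the median gene in both tables, and CD27 was below it in both.

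Markers of other lineages were mostly weak or not listed. The T-cell receptor genes CD3D, CD3E and CD3G and the erythroid genes HBB and KLF1 were in neither table, and MPO, a defining gene of granulocyte precursors, had means of 8.25 and 10.7. Of the T-cell list, 2 of 8 genes were listed in clone 1 and 4 of 8 in clone 2, the highest being BCL11B at 270 and 352. Of the myeloid list, 6 and 7 of 7 genes were listed, and CSF1R was the highest, at 615 and 768. Of the erythroid and megakaryocyte list, 1 and 2 of 5 genes were listed, with no mean above 15.8. The stem cell marker CD34 had means of 9.75 and 11.6. Of the other stem or early progenitor markers, KIT had 61 and 124, and PROM1 was listed in clone 2 alone, at 1.55.

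**Figure D4:**
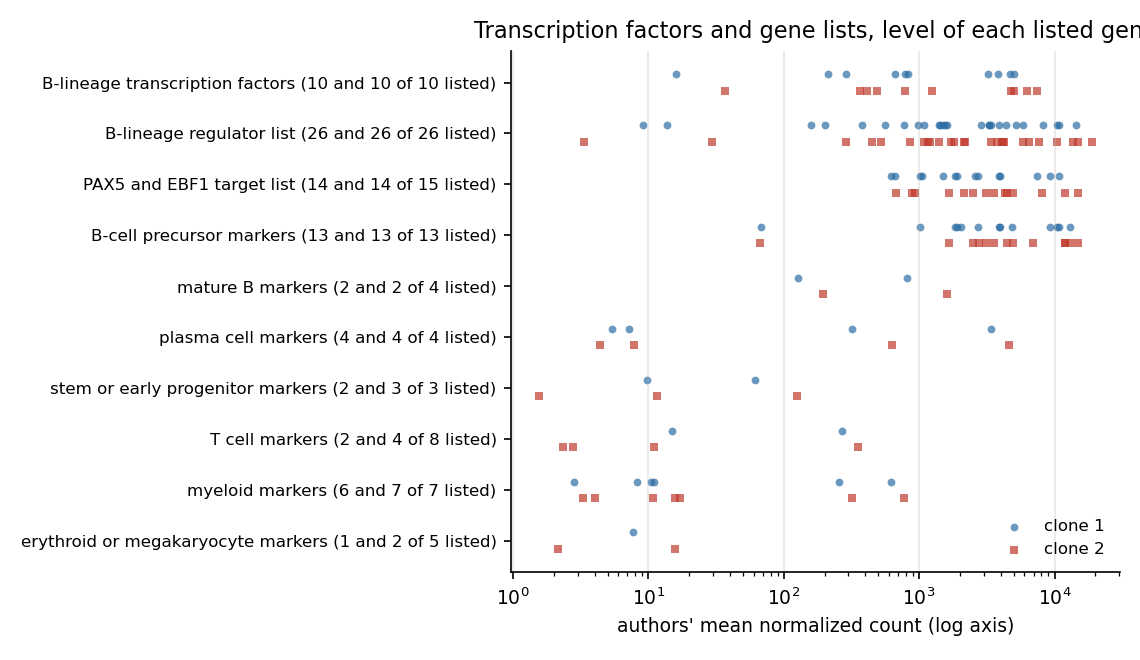
Mean normalized count of each listed gene, on a log axis, for the 10 transcription factors and for lists of regulators, targets and cell type markers, with clone 1 as blue circles, clone 2 as red squares and the numbers of listed genes in clones 1 and 2 in brackets. The targets of PAX5 and EBF1 lie at 614 or higher, whereas 4 of 6 myeloid genes in clone 1 lie under 50.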

How the data were processed

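The 12 libraries (4 groups of 3) were prepared from RCH-ACV RNA, purified on columns, with a stranded mRNA kit, and the labels assign each to a clone and a drug state. In the submitters' processing notes, DESeq2, the build hg19, FastQC 0.10.1, bedtools 2.19.0, Picard 1.107, SAMtools and 2 releases of BWA (0.7.7-r441, 0.6.2-r126) are listed, with no role for any. How reads were counted, on which annotation and with which strand setting, is not given in the sources used here. Each of the 2 deposited tables holds, per gene, a signal, the authors' mean, over a clone's libraries, of counts after division by size factors. A further 7 columns per table hold the authors' own comparison of resistant with sensitive cells (fold changes, errors, test statistics and calls) and were not used. There are 0 columns of single libraries, so the count model foreseen for them could not be fitted, and counting error per library is unknown.

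Percentiles were taken over all genes of a table, leaving out 2 genes that share a symbol. Clone ratios were scaled by the summed means. Exon lengths (exons of coding transcripts) and transcript sequences came from GENCODE release 29 (GRCh38), matched by symbol for 94.5% and 94.4% of genes. Since the tables hold no coordinates and the builds differ, none are given. Shared sequence was searched as exact stretches of 31 bases, sense strand, between the coding transcript with the longest coding part and all transcripts of other genes. Calculations used Python 3.11.15 with numpy 2.4.6 and pandas 2.3.3, and the ratio and percentile steps were tested on data with known answers. All 10 factors and their listed paralogs are named, and of each other list the highest 4 and lowest 2 genes in clone 1 or defining markers. The factors and lists were chosen with earlier results of these data known. Alternatives were other gene backgrounds, lengths and scalings.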

Additional observations from a re-analysis of the deposited data

How the results depend on the processing

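No paired analysis was possible because each table holds 1 mean per gene over the libraries of a clone, and for the same reason no library could be left out and the count models and filters foreseen for counts per library could not be run. The median percentile of the 10 factors, 65.9 in clone 1 and 67.4 in clone 2, depends on the genes it is taken over. Among genes with a mean of at least 10 it was 61.9 and 61.5, and among genes with a mean of at least 50, which leaves out IKZF3, it was 56.4 and 62.8. Among genes with a RefSeq protein it was 61.8 and 63.1, and among genes in both tables it was 65.8 and 64.8. These shifts follow from the genes that each background leaves out. Without the 10 most abundant genes in the sum, the factors came to 1080 and 1149 CPM of the summed means, against 1026 and 1092 CPM. The number of factors above the median gene per length was 5 in both clones with exon length, 7 in both with coding length, and 5 and 6 with the longest transcript. The median log2 ratio of clone 2 over clone 1, 0.17, was unaltered at 2 decimals with centring on the median of shared genes or with a pseudocount of 1. It was 0.53 without any scaling, where the larger sum of clone 2 enters, and 0.15 among genes with a mean of at least 50 in both tables. The factors beyond 1.5-fold numbered 3, or 4 without scaling and 2 with the minimum of 50. With the main scaling 8.43% of all shared genes were beyond 1.5-fold, and the share without scaling was not taken. No factor beyond 1.5-fold turned direction, but this could not have come out otherwise. Leaving out the scaling moves every log2 ratio by 0.36, less than a 1.5-fold difference, and the other alternatives moved the factors less.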
